A study of Mus musculus with 4 samples.

Results

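Flavin-containing monooxygenases are enzymes of the endoplasmic reticulum that use flavin, NADPH and oxygen to add an oxygen atom to nitrogen or sulfur in drugs, plant compounds and some of the body's own metabolites. Genes of this family were taken from a whole-lung expression array study of mice by name: Fmo1, Fmo2, Fmo4 and Fmo5. Each had 1 probe set annotated to it alone, so that 4 of the 30702 genes tested are described here. Among probe sets of a gene the one with the highest mean over all 4 arrays was to be kept, a step that left nothing to choose for these genes. The highest mean is thus the measured value the probe sets were chosen by. The family was proposed with the decrease of Fmo1 already known, so that the choice of Fmo1 is not independent of its value.

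The study compared 2 groups of adult, age-matched mice with 2 arrays each. Wild-type (WT) mice are labelled C57/BL6 and the others SCD Tg, where SCD stands for sickle cell disease and Tg for transgenic. The transgenic line, its globin alleles, the background it was bred on and the animals' sex are not stated in the labels. Whether each array came from its own animal is not stated further than by a mention of 2 lungs per group, so p-values measure the spread between these samples, which may be technical. Values are log2 expression values from robust multi-array average (RMA) processing, and differences are SCD minus WT on that scale, with the moderated standard error (SE) of limma. A difference of 1 is a doubling, and array values tend to understate the size of large changes.

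The arrays held the profile of lung. The surfactant gene Sftpb, of alveolar type 2 cells, lay between 16.71 and 16.85 on the 4 arrays, and Ager, of alveolar type 1 cells, between 12.81 and 13.17. Xist, which is transcribed from the inactive X chromosome, lay between 16.75 and 16.81, and the Y-linked genes Kdm5d, Uty and Eif2s3y between 4.36 and 4.99, so that both groups gave the same sex-linked pattern. The median of the intron controls, probe sets for sequence that should not be in mature RNA, ran from 6.28 to 6.48 and serves below as a mark of background. It is a high mark, since the median of all transcript clusters ran from 5.59 to 5.65. A gene below it is thus not shown to be absent. Among all genes tested, 952 of 30702 genes passed an adjusted p of 0.05 (3.10%), 757 of them higher (2.47%) and 195 lower (0.635%) in SCD lung. Higher genes were 79.5% of the calls, against 64.4% with quantile normalization repeated and 47.8% with the shift of the exon controls removed. That last setting moved the median difference of all genes from 0.002 to -0.19.

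The family works upstream of excretion: the flavin holds an activated oxygen ready, and a substrate that reaches it is oxygenated without the tight fit that many enzymes need. FMO1 has a broad range of substrates and also makes taurine from hypotaurine. FMO2 is known as the form typical of mammalian lung, FMO5 oxygenates some ketones, and the function of FMO4 is little known. In mouse, Fmo1, Fmo2 and Fmo4 lie in a cluster on chromosome 1 and Fmo5 lies alone on chromosome 3.

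Fmo1 fell in SCD lung, and it was the 1 member of 4 that passed the test over all genes. Its log2 value was 14.58 and 14.83 in WT lung, and both SCD arrays read 12.98. Both SCD arrays lay below both WT arrays, and the gap between the groups was 1.60 while the WT arrays differed from each other by 0.26. The difference was -1.73 ± 0.10 (SE, n = 2 arrays per group; 95% confidence interval from -1.99 to -1.46; limma adjusted p = 0.00584), or 3.31-fold lower. Genes called lower were 0.635% of all genes, and in order of difference Fmo1 was number 18 from the lowest of 30702. In whole-tissue RNA, fewer cells that make a transcript and less of it per cell cannot be told apart.

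Fmo1 was a bright probe set in both groups. Its mean over the 4 arrays lay above that of 98.1% of genes and of 98.4% of intron controls. Of the 567 genes at least as bright by their mean over all arrays, Fmo1 itself included and genes with identical values left out, none had a lower difference than Fmo1. Their median difference was 0.09, and limma called 42 of them higher and 14 lower, the latter number including Fmo1. That set was cut at the mean of Fmo1 itself. The dimmer gene Ptprb, with means of 14.47 in WT and 12.64 in SCD lung, had a lower difference, -1.82. Among all genes Fmo1 was number 18 from the lowest. The call depended on having both SCD arrays. Without SCD replicate 1 or without SCD replicate 2 the difference was -1.73 each time with an adjusted p of 0.0827 and 0.087, and under those settings limma called 0 genes in the whole table, while 3306 and 3270 genes had an unadjusted p below 0.05.

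Fmo2, the neighbour of Fmo1 on chromosome 1, had slightly higher values in SCD lung, a difference that missed the threshold. Its values were 14.15 and 14.21 in WT and 14.55 and 14.52 in SCD lung. The groups did not overlap, with both SCD arrays 0.30 or more above the higher WT array and arrays of 1 group at most 0.06 apart. Groups also did not overlap for 47.7% of all genes. The difference of 0.35 ± 0.06 (95% confidence interval from 0.19 to 0.51), or 1.27-fold, had a limma adjusted p of 0.0664. It passed among protein-coding genes alone (adjusted p = 0.0208) and without the dimmest 50% of genes (adjusted p = 0.0395). It stayed above 0 in every setting tried, but was 0.15 with the exon control shift removed and 0.18 with quantile normalization repeated. Among the 482 genes at least as bright as Fmo2, itself included, 72 had a difference as high or higher.

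**Figure D1:**
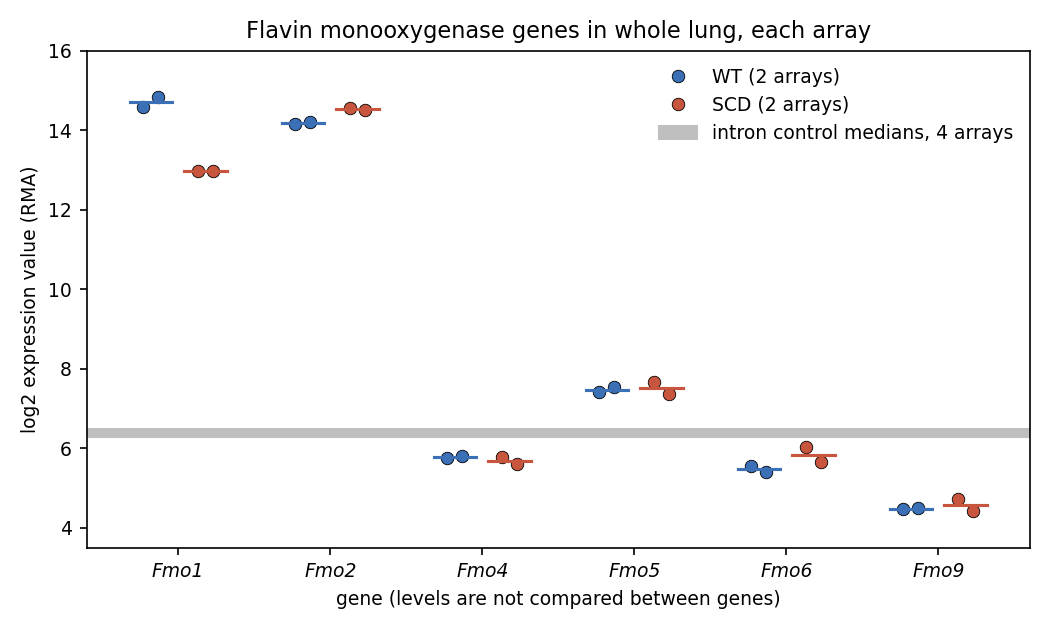
Log2 expression values of the 4 genes described and of the related genes Fmo6 and Fmo9 on each array; points are arrays, short lines are group means, and the grey band spans the intron control medians of the 4 arrays. The SCD points of Fmo1 sit at 12.98, below the WT points at 14.58 and 14.83, while those of Fmo2 sit slightly above WT and Fmo4, Fmo6 and Fmo9 lie under the band.

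The region around the start of Fmo2 is shown because Fmo2 is the bright member that did not share the decrease of its neighbour. The RefSeq promoter table, build GRCm38.p6, gives it 2 start sites on the minus strand, each with a window of 250 bases before and 50 bases after the start; the windows overlap at their ends. Window 1 is chr1:162898709-162899008 and window 2 is chr1:162898444-162898743, both written 5′ to 3′ with matches to the searched motifs in capitals. No window of Fmo1 was used here.
Fmo2 window 1: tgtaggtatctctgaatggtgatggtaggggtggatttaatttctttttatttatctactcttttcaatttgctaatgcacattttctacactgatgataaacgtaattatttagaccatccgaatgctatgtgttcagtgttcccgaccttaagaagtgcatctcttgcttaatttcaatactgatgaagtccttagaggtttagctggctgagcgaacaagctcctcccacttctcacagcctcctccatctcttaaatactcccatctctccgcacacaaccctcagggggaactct
Fmo2 window 2: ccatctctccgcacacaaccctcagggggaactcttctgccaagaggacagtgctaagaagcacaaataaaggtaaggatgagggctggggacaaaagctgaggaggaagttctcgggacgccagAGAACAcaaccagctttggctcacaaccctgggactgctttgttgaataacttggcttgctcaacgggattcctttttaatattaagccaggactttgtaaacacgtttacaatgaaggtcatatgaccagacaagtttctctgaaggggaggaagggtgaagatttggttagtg
Window 1 held no match and window 2 held 1, the glucocorticoid receptor half-site AGAACA, from 125 to 120 bases before the start. That half-site was found in 19.0% of the 32851 RefSeq windows of the same length. The motifs searched on both strands were TATAAA (13.6% of windows), CCAAT (37.4%), the E-box CACGTG (7.15%), the D-box TTATGTAA (0.938%), the antioxidant response element core TGACNNNGC (12.4%), AGAACA, the HNF4 site CAAAGTCCA (0.475%) and the C/EBP site TTGCGCAA (0.183%). The window of Fmo4 held 1 CCAAT match. That of Fmo5 held 1 match to CCAAT and 1 to TATAAA, both on the opposite strand. No matches overlapped each other in these windows. A match describes the letters of the window and shows no binding.

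Fmo4 and Fmo5 gave no difference that passed. Fmo4 had values of 5.76 and 5.81 in WT and 5.79 and 5.60 in SCD lung, below the intron control median on every array, so that little can be read from it. Its groups overlapped, and the difference was -0.09 ± 0.12 (95% confidence interval from -0.40 to 0.23; limma adjusted p = 0.793). Fmo5 was measured above that mark, at 7.42 and 7.54 in WT and 7.66 and 7.38 in SCD lung. Both WT values lay between the SCD values. Its difference was 0.04 ± 0.14 (95% confidence interval from -0.31 to 0.39; limma adjusted p = 0.925), an interval that does not reach the size seen for Fmo1.

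The related genes of the family lay below the intron control median on every array. Fmo6, which follows Fmo2 in the RefSeq order, had values of 5.55 and 5.41 in WT and 6.03 and 5.66 in SCD lung, and its difference of 0.37 ± 0.16 did not pass (limma adjusted p = 0.356). Fmo9, on the same chromosome, ran from 4.43 to 4.72 over the 4 arrays (0.09 ± 0.15; limma adjusted p = 0.825). Gm4846 and Gm4847, which RefSeq lists under older Fmo names and which were added after their values were seen, had differences of -0.33 ± 0.15 and -0.16 ± 0.20. Neither passed (limma adjusted p of 0.369 and 0.758), and their 8 array values ran from 4.26 to 4.95.

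Within the family, the largest shifts between groups were those of Fmo1 against each other member. By construction, each shift is the SCD minus WT difference of the first member less that of the second. The pairs with Fmo1 thus all carry its decrease and add no support to it. The log2 value of Fmo1 minus that of Fmo2 was 0.43 and 0.62 in WT and -1.57 and -1.54 in SCD lung. Probe sets differ in how brightly they report a transcript, so that only the shift between groups is read from such a difference. That shift was -2.08 ± 0.10 (SE from the array values, n = 2 per group). For Fmo1 minus Fmo4 it was -1.64 ± 0.14 and for Fmo1 minus Fmo5 -1.77 ± 0.16.

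Shifts among the other members were smaller. Fmo2 minus Fmo4 had a shift of 0.44 ± 0.08 and Fmo2 minus Fmo5 of 0.31 ± 0.13. Fmo4 minus Fmo5 had a shift of -0.13 ± 0.06. These 3 shifts moved with the settings: with quantile normalization repeated they were 0.27, 0.22 and -0.05, Fmo2 minus Fmo5 was 0.18 without SCD replicate 2, and Fmo4 minus Fmo5 was -0.08 without SCD replicate 1. In all 6 pairs the WT and SCD arrays did not overlap, which 47.7% of single genes also showed. The two-sided exact permutation test over the 4 arrays gave p = 0.333 for each pair, raw and adjusted over the 6 pairs, which is the smallest p that 2 against 2 arrays allow.

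**Figure D2:**
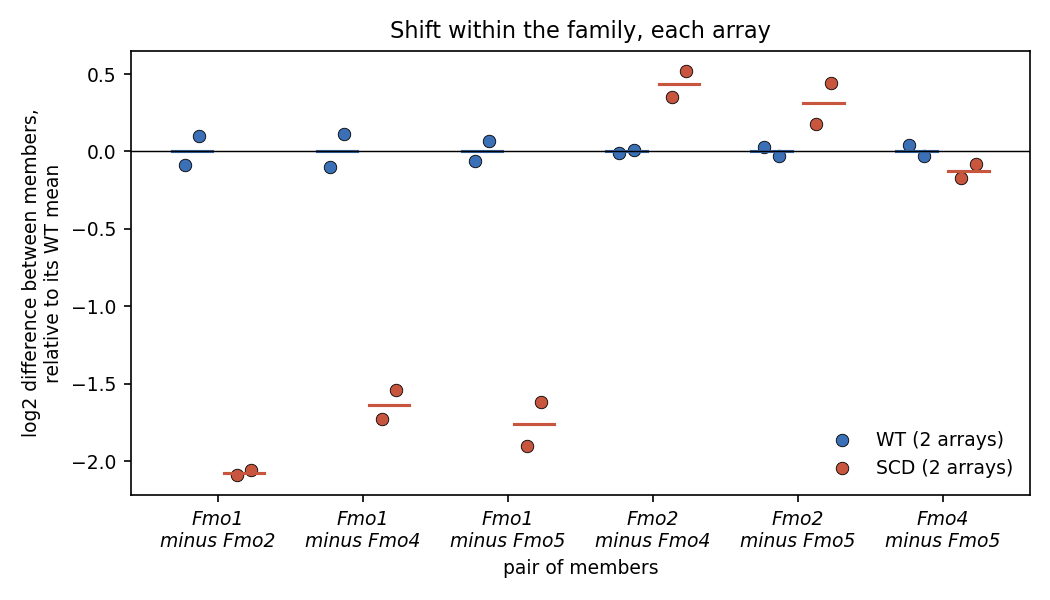
Log2 difference between members of a pair on each array, with the WT mean of that pair set to 0; points are arrays and short lines group means. The 3 pairs that hold Fmo1 against another member shift by -1.64 to -2.08 in SCD lung, and the others shift by 0.44 or less.

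No measured gene beside the members passed the test. In the RefSeq order of protein-coding genes, Fmo1 stands between Fmo4 and Fmo2. On the far side of Fmo4, Prrc2c had values of 12.44 and 12.68 in WT and 12.42 and 12.39 in SCD lung, with a difference of -0.15 ± 0.10 (limma adjusted p = 0.544). Myocos (-0.05 ± 0.12) and, beyond the cluster, Mroh9 (-0.09 ± 0.13) lay at 4.65 or lower on every array and did not pass. Around Fmo5 on chromosome 3, Chd1l, Olfr1402, Bcl9, Prkab2 and Sec22b had differences from -0.17 to 0.04, and none passed (limma adjusted p from 0.577 to 0.963).

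**Figure D3:**
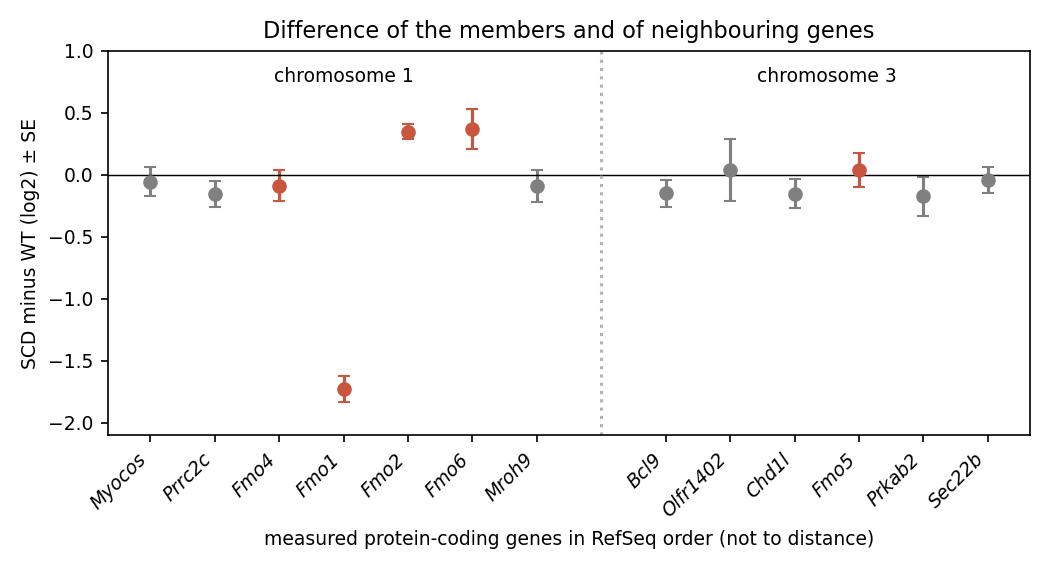
Difference between SCD and WT (log2, bars are the SE from limma) for measured protein-coding genes in their RefSeq order, with genes of the family in red and other genes in grey; spacing is not to distance. Fmo1 stands alone at -1.73, and every other gene drawn lies between -0.17 and 0.37.

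The genes whose pattern over the 4 arrays was most like that of Fmo1 were Ptprb, Sema6a, Eln, Hmcn1 and Fabp1. Likeness was the Euclidean distance between log2 values after taking off each gene's own mean, over 4 arrays and 19216 protein-coding genes; with so few arrays it says little beyond a similar drop. Ptprb, which encodes a receptor phosphatase of endothelial cells, was nearest at a distance of 0.126. Its values of 14.39 and 14.54 in WT and 12.64 and 12.64 in SCD lung gave a difference of -1.82 ± 0.08 (limma adjusted p = 0.00301). The semaphorin gene Sema6a followed at 0.177 (-1.58 ± 0.15), the elastin gene Eln at 0.207 (-1.88 ± 0.09), the matrix gene Hmcn1 at 0.224 (-1.91 ± 0.09) and the fatty acid binding protein gene Fabp1 at 0.244 (-1.96 ± 0.12). All 5 passed (limma adjusted p from 0.00301 to 0.0113). Because they were chosen for their likeness to a called gene on the same arrays, these p-values add no support.

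**Figure D4:**
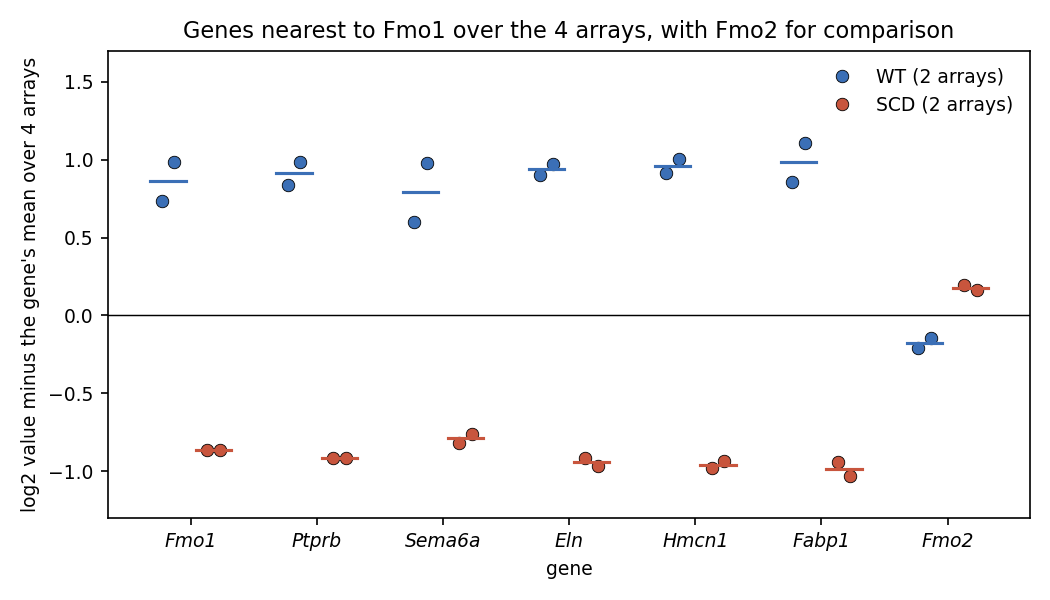
Log2 value minus the gene's own mean over 4 arrays, for Fmo1, the 5 protein-coding genes nearest to it and Fmo2; points are arrays and short lines group means. In Fmo1 and its 5 nearest genes, which were chosen for a like pattern, both WT points lie above 0 and both SCD points below. Fmo2 shows the opposite order.

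Markers of several cell types differed between the groups beside Fmo1. Over all genes 2.47% were called higher and 0.635% lower, and brighter genes were called more often. Of 12 endothelial markers, 5 fell and 1 rose, with a median difference of -0.42 against 0.002 over all genes. Their summed level on the log2 scale was 16.54 and 16.65 in WT and 15.96 and 16.03 in SCD lung, and none of the 12 lay below the intron control median. Tek, the angiopoietin receptor gene, fell by 1.94 ± 0.08 and Gpihbp1, the capillary anchor of lipoprotein lipase, fell by 1.56 ± 0.09. The 1 marker that rose was Car4 (1.18 ± 0.09). Cldn5 (0.65 ± 0.16), Pecam1 (0.24 ± 0.10) and Vwf (0.06 ± 0.09) did not pass. The part of endothelial cells in the change of Fmo1 was not tested.

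Other marker lists gave these values, to be set against the same shares of all genes, 2.47% higher and 0.635% lower. Of 10 fibroblast markers, 2 fell, with a median of -0.09 and a summed level from 15.05 to 15.42 in WT and of 15.25 on both SCD arrays. Of 8 adipocyte markers, 2 fell, with a median of -0.43 and a summed level of 9.93 and 10.20 in WT and 9.23 and 9.17 in SCD lung; 5 of the 8 lay below the intron control median. Of 10 hepatocyte markers, 1 fell, the albumin gene Alb (-0.77 ± 0.12), with a median of -0.04; 9 of the 10, Alb among them, lay below that mark, and the summed level was 8.74 to 8.84 in WT and 8.73 to 8.78 in SCD lung. Among 8 markers of kidney proximal tubule, 6 lay below that mark; Lrp2, which the lung epithelium also expresses, and Gatm rose. Club cell markers rose in 4 of 8 cases (median 0.93), namely Bpifa1, Bpifb1, Muc5b and Reg3g. Scgb1a1, Scgb3a2, Scgb3a1 and Cyp2f2 did not pass. Scgb1a1 read 19.93 on all 4 arrays, the highest value of the data, so that a difference between groups may not show in it. The summed level of the club cell list was 20.29 and 20.32 in WT and 20.35 and 20.34 in SCD lung. Most of that sum came from Scgb1a1, so that little can be read from it. Ciliated cell markers rose in 4 of 7 cases (median 1.06). Of alveolar markers, 0 of 8 of type 1 cells (median 0.12) and 0 of 8 of type 2 cells (median -0.09) passed. The type 2 marker Sftpc also read 19.93 on all 4 arrays.

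Markers of blood cells and muscle also differed, beside 2.47% of all genes called higher and 0.635% lower. Neutrophil markers rose in 5 of 8 cases (median 1.69), erythroid markers in 3 of 7 (0.28), T and NK cell markers in 4 of 7 (0.97) and B and plasma cell markers in 2 of 6 (0.24). Alveolar macrophage markers rose in 1 and fell in 2 of 7 cases (median -0.49). The 1 that rose was Car4, the same gene that was counted as rising in the endothelial list. Smooth muscle and pericyte markers rose in 1 of 8 cases (0.11) and cardiac muscle markers in 2 of 7 (0.43). The part of these cells in the values of the Fmo genes was not tested.

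Genes that act with or beside the family mostly did not pass. In the list of hypotaurine, taurine and sulfur amino acid genes, which holds the supply of the FMO1 substrate hypotaurine, 1 of 16 measured genes rose, 0 fell and 15 did not pass (median difference 0.06). Over all genes 2.47% were called higher and 0.635% lower, and brighter genes were called more often, so that 1 call says little about the list. The gene that rose was Aldh1a1, an aldehyde dehydrogenase gene of retinoid metabolism also counted among the phase I enzymes below. It had values of 15.35 and 15.52 in WT and 15.96 and 15.94 in SCD lung (0.51 ± 0.08; limma adjusted p = 0.0388). Its call was lost in 5 of 11 alternatives with all arrays, with an adjusted p of up to 0.122 and a difference down to 0.32, and without WT replicate 1 (adjusted p = 0.0538). Csad, which makes hypotaurine, had a difference of -0.28 ± 0.11 (limma adjusted p = 0.288) and the cystathionine lyase gene Cth of 0.49 ± 0.12 (limma adjusted p = 0.123).

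Cofactor supply gave no call. Of 11 measured genes of flavin and NADPH supply, 0 passed in limma and the median was 0.10; Rfk, which makes flavin mononucleotide from riboflavin, came nearest with 0.47 ± 0.08 (limma adjusted p = 0.0603). It was the 1 gene of the list to pass among protein-coding genes alone and without the dimmest 25% or 50% of genes. Nnt, a mitochondrial source of NADPH, had a difference of -0.28 ± 0.10. Of 6 genes of microsomal electron transfer, 0 passed (median 0.07), with the cytochrome b5 reductase gene Cyb5r3 at 0.49 ± 0.16 and Pgrmc1 at 0.24 ± 0.08. At an unadjusted p under 0.05 stood 2 genes of each of these lists, beside 5131 of all 30702 genes.

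Among 39 other phase I enzymes, 4 rose, 3 fell and 32 did not pass, and the median was 0.06. The share called over all genes was 3.10%, but brighter genes were called more often. Of the 8378 genes at least as bright as Fmo5, 733 were called. Of the 39 enzymes, 11 lay below the intron control median. The aldo-keto reductase gene Akr1b8 rose by 1.59 ± 0.13 and Akr1c14 by 1.15 ± 0.12, and the epoxide hydrolase gene Ephx1 rose by 1.47 ± 0.10, from 11.01 and 11.22 to 12.60 and 12.57. The aldehyde oxidase gene Aox3 fell by 0.88 ± 0.10 (limma adjusted p = 0.0198), the paraoxonase gene Pon1 fell by 0.88 ± 0.13 and the xanthine dehydrogenase gene Xdh fell by 0.46 ± 0.07. Xdh values were 15.24 and 15.37 in WT and 14.85 and 14.84 in SCD lung. The calls of Aox3 and Pon1 were lost without WT replicate 1 (adjusted p of 0.0584 and 0.142) and without WT replicate 2 (0.0606 and 0.105), and that of Xdh without WT replicate 2 (0.0584). The calls of Xdh and Pon1 were also lost in 4 and 2 of the 11 alternatives with all arrays, and Xdh had a difference of -0.22 over the mean of its probe sets.

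Of 32 phase II conjugating enzymes measured, 3 rose, 0 fell and 29 did not pass (median 0.16). They were the sulfotransferase gene Sult1d1 (1.24 ± 0.11) and the glutathione transferase genes Gsto1 (1.08 ± 0.17) and Gsta3 (0.87 ± 0.09); the call of Gsto1 was lost in 5 of 11 alternatives with all arrays and without WT replicate 1 (adjusted p = 0.0729). Of 20 factors that control drug-metabolism genes, 4 rose, 0 fell and 16 did not pass (median 0.06). The counts of both lists are to be set against the shares given for the phase I enzymes. Nfe2l2, the gene of the antioxidant response factor NRF2, rose by 0.80 ± 0.07 (0.47 with quantile normalization repeated), and the PAR bZIP factor genes Dbp, Hlf and Tef rose by 1.34 ± 0.11, 0.77 ± 0.11 and 0.69 ± 0.10. The calls of Hlf and Tef were each lost in 3 of 11 alternatives with all arrays, without WT replicate 1 (adjusted p of 0.108 and 0.104) and without WT replicate 2 (0.0636 and 0.0692). The dioxin receptor gene Ahr, at -0.71 ± 0.13, did not pass (limma adjusted p = 0.0616).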

How the data were processed

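Whole-lung RNA of 4 samples was measured on Affymetrix arrays after 3' in vitro transcription labelling, per the labels' protocols. The deposited table holds log2 values per probe set, for which the authors used Affymetrix Expression Console, Partek and RMA per the submitters' processing notes, with versions, order and genome build not given in the sources used here. The log2 scale was read from the values (1.72 to 19.9). Of 72688 probe sets, 6732 were controls, 31258 were paired with 1 gene, 1492 with several and 33206 with none by the platform's annotation; old symbols were replaced from RefSeq's gene table (GRCm38.p6), which held 30700 of the 30702 gene symbols. Each gene kept its brightest probe set, and no dim gene was removed. Values were identical on all arrays for 192 transcript clusters.

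SCD was compared with WT in limma 3.58.1 (R 4.3.3; lmFit, eBayes with an intensity trend), two-sided, with Benjamini-Hochberg adjustment over all 30702 genes and a threshold of 0.05. Pairs of members were tested with an exact permutation test (SciPy 1.17.1). The fit was run on data simulated from its own fitted spread, which checks the code and not whether the model holds for these arrays. Members, gene lists and tests were chosen with earlier results of these data known. Named genes were the members, other genes called Fmo and a number, up to 4 called genes of a list by smallest p (2 where none passed), the 3 nearest genes on each side and the 5 genes most like a called member. Further examples and the marker genes named were picked with their values in view. The number of arrays limits precision.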

Additional observations from a re-analysis of the deposited data

How the results depend on the processing

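Fmo1 kept its direction and its call in all 11 alternatives that used all 4 arrays, with differences from -1.96 to -1.73 and adjusted p from 0.000943 to 0.0177. Leaving out 1 array gave -1.86 to -1.60 for Fmo1, with an adjusted p of 0.0827 and 0.087 where an SCD array was left out (difference -1.73 in both), 0.32 to 0.38 for Fmo2, -0.18 to 0.00987 for Fmo4 and -0.10 to 0.18 for Fmo5. Fmo2 passed, at 0.35, among protein-coding genes alone and without the dimmest 50% of genes, where fewer genes are tested. Fmo5, which never passed, turned to -0.04 with quantile normalization repeated and -0.16 with the exon control shift removed. Fmo4 could not be tested without the dimmest 50%, which leaves it out. With quantile normalization repeated, Fmo1 minus Fmo4 had a shift of -1.87, Fmo2 minus Fmo4 of 0.27 and Fmo4 minus Fmo5 of -0.05; the cause was not tested. Leaving out 1 array gave shifts of -2.17 to -1.98 for Fmo1 minus Fmo2, -1.75 to -1.53 for Fmo1 minus Fmo4, -1.91 to -1.63 for Fmo1 minus Fmo5, 0.36 to 0.52 for Fmo2 minus Fmo4, 0.18 to 0.43 for Fmo2 minus Fmo5 and -0.17 to -0.08 for Fmo4 minus Fmo5. Over the whole table limma called 648 to 1359 genes in the alternatives with all arrays and 0 to 786 with 1 array left out (508 without WT replicate 1, 0 without either SCD array). Replicate numbers are shared by the groups, but same-numbered arrays did not deviate together (correlation across 30702 genes of -0.0022); with the replicate block 973 genes were called, Fmo1 kept -1.73 (adjusted p = 0.00508) and the factor list had 2 calls in place of 4. List calls ranged from 4 to 9 for phase I, 2 to 5 for phase II and 2 to 5 for the factors.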
